A study of Mus musculus with 12 samples.

Results

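The comparison described here is that of TGF-β (transforming growth factor beta) with vehicle in primary adult mouse cardiac fibroblasts that carried a scramble siRNA, the cells of the series in which histone H1.0 was not depleted. It sets 6 of the 12 libraries against each other, 3 labelled TGF-β with scramble siRNA and 3 labelled vehicle with scramble siRNA, assigned to their groups by the labels. The fibroblasts came from wild-type C57BL/6J mice, adults of both sexes, and were separated from digested hearts by plating, grown with basic fibroblast growth factor and, after 24 h in medium with 0.1% FBS, given TGF-β at 10 ng/mL or vehicle. The scramble siRNA was common to both groups, so neither group was free of transfection. The other 6 libraries came from cells given an H1.0 siRNA and then vehicle or TGF-β. They entered the same model, and so also shaped which genes were tested and the adjustment for replicate number. The spread estimated for each gene, and with it every adjusted p below, drew on them too. Their own values are used below mainly to ask where the response of the scramble cells differed. How long TGF-β was present before RNA was taken is not given in the sources used here.

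TGF-β is a secreted cytokine that is stored in the matrix bound to latent proteins, and once freed it signals through a pair of serine/threonine kinase receptors to the transcription factors SMAD2 and SMAD3. In cardiac fibroblasts it drives the change from a resting cell, which maintains the collagen network and expresses Pdgfra and Tcf21, to a contractile, matrix-secreting myofibroblast, which expresses smooth muscle α-actin (Acta2) and periostin (Postn). That change is a part of scar formation and fibrosis, and it requires new cytoskeleton, a larger secretory apparatus and the metabolism that supplies both.

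Each library held between 19864545 and 24412783 reads that Salmon assigned to transcripts, and the reads were summed per gene. Values below are normalized counts, that is, reads per gene scaled to a common library size by the TMM method, and they are given in the order replicate 1, 2 and 3. In a principal component analysis of the 500 genes with the widest variance, the first component held 67.5% and separated TGF-β from vehicle, whereas the second held 17.8% and set both libraries of replicate 3 (12.95 and 13.66) apart from those of replicates 1 and 2 (-11.85 to 1.07). The labelled cell type was borne out by its markers, since all 12 cardiac fibroblast markers were detected, with summed levels of 18102 to 19417 TPM, the share of all transcripts scaled for length and depth, with vehicle and 14986 to 16630 with TGF-β. Macrophage markers were also present, at 1859 to 2111 TPM with vehicle and 1374 to 1441 with TGF-β. Of 14 cardiomyocyte markers 9 were under 1 TPM in all 6 libraries. Together they still summed to 182.1 to 203.8 TPM with vehicle and 153.6 to 185.8 with TGF-β, with Tnnt2, Tnnc1 and Nppa the most abundant. Endothelial markers summed to 83.6 to 127.6 TPM with vehicle and 61.4 to 75.4 with TGF-β. Of 10 lymphocyte markers 9 were under 1 TPM in all 6 libraries, and their sum was at most 3.3 TPM. In bulk RNA, fewer cells of a type and less RNA per cell cannot be told apart. Histone H1.0 itself (H1f0) read 2515, 3033 and 2648 normalized counts in the vehicle libraries and 2832, 2922 and 2806 in the TGF-β libraries, and the groups overlapped (log2 fold change 0.07 ± 0.15).

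The response was broad and ran in both directions. Of 18028 genes tested, 5125 (28.4%) passed the threshold of an adjusted p below 0.01, of which 2777 were higher with TGF-β (15.4% of genes tested) and 2348 lower (13%). The median log2 fold change was 0.53 among the genes that rose and -0.68 among those that fell, against -0.015 over all genes tested. A change of at least 2-fold was met by 548 genes that rose (3.04%) and 686 that fell (3.81%), and a change of at least 4-fold by 187 (1.04%) and 133 (0.738%). Of the 5125 genes, 5124 moved the same way in all 3 replicate pairs. The genes were called on these same pairs, so that agreement is no separate check, and its share over all genes tested was not taken. The 3 TGF-β values lay clear of the 3 vehicle values for 4822 of the 5125, as they did for 45.7% of all genes tested. The genes that rose held 23.5 to 26.5% of all reads with vehicle and 35.5 to 38.1% with TGF-β, while those that fell went from 22.3 to 25.2% down to 13.4 to 15.3%. In the 6 scramble libraries alone, with the replicate number as a block, 2559 genes rose and 2167 fell, and 85.9% of the calls above were kept. In the 12 libraries without the block, 1893 genes rose and 1431 fell. Without the libraries of replicate 3, the numbers were 2626 and 2257, an alternative chosen after the data were seen.

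**Figure D1:**
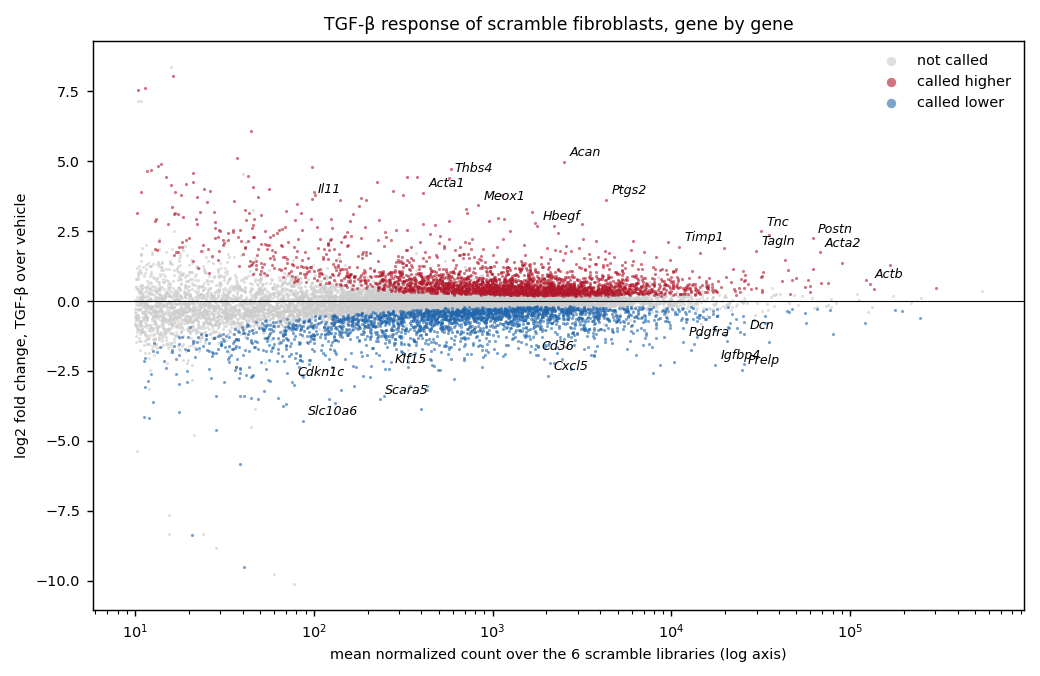
Each point is a gene, placed by its mean normalized count over the 6 scramble libraries (horizontal, log axis, genes at 10 or more) and its log2 fold change, TGF-β over vehicle (vertical), with genes called higher in red, called lower in blue and all others in gray. Called genes lie on both sides of 0 at every level above about 100, with Acan (4.98) and Slc10a6 (-4.28) at the 2 ends among the named genes.

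Where the groups did not overlap and the larger group mean reached a normalized count of 100, the steepest rise was that of aggrecan (Acan), a large chondroitin sulfate proteoglycan of cartilage. It read 135, 403.3 and 34.4 normalized counts in the vehicle libraries and 6010, 5843 and 2691 in the TGF-β libraries, so that the lowest TGF-β library was above every vehicle library (log2 fold change 4.98, s.e. 0.35, edgeR adjusted p = 2.8e-06). Vehicle libraries themselves spread widely for this gene, and replicate 3 was the lowest in both groups. Thrombospondin 4 (Thbs4), a matricellular protein of tendon and of the stressed heart, went from 34.9, 54.6 and 62.6 to 1273, 1110 and 873.8 (log2 fold change 4.41, s.e. 0.21, edgeR adjusted p = 4.4e-07). Prostaglandin-endoperoxide synthase 2 (Ptgs2), the inducible cyclooxygenase, was the most abundant of the 20 steepest genes and read 491.2, 584.5 and 727.1 normalized counts in the vehicle libraries and 4547, 6531 and 12997 in the TGF-β libraries (log2 fold change 3.63, s.e. 0.28, edgeR adjusted p = 5.4e-06). Lack of overlap between groups was a condition for entry among the 20, and it was met by 45.7% of all genes tested.

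Several of the 20 encode secreted signals or their receptors. Interleukin 11 (Il11), a cytokine of the IL-6 family made by activated fibroblasts, went from 10.9, 19.9 and 9.83 to 103.5, 177.9 and 263.3 (log2 fold change 3.66, s.e. 0.44, edgeR adjusted p = 7.8e-05). The metabolic hormone Fgf21 read 1.09, 4.96 and 14.7 in the vehicle and 69.4, 74.5 and 172.5 in the TGF-β libraries, and the chemokine Ccl17 24, 12.4 and 31.9 in the vehicle and 397.4, 337.8 and 547 in the TGF-β libraries. Both were low with vehicle (log2 fold changes 3.99 ± 0.32 and 4.24 ± 0.16). The relaxin-3 receptor Rxfp3 rose by 3.94 ± 0.29 on the log2 scale. Others act on the cytoskeleton or on adhesion, among them the guanine nucleotide exchange factor Ngef (4.44 ± 0.19), the cAMP-activated Rap exchange factor Rapgef4 (4.42 ± 0.11), the actin-binding protein nebulette (Nebl, 3.61 ± 0.24), skeletal α-actin (Acta1, 3.87 ± 0.22), plakophilin 1 (Pkp1, 3.80 ± 0.23), the cadherin Cdh10 (3.60 ± 0.22) and the integrin αL subunit (Itgal, 3.77 ± 0.16). Completing the 20 were Olfm2, Serinc2, Vstm2b, the metalloproteinase Adamts16, the homeobox factor Meox1 and Eef1akmt1, with log2 fold changes from 3.42 to 4.78. Of Eef1akmt1 (0, 11.2 and 12.3 in the vehicle and 189.3, 133.7 and 238.3 in the TGF-β libraries) less can be said, because its vehicle values in the H1.0 siRNA cells averaged 152.1 ± 137.2 and its call was lost without any one of the vehicle libraries and without the TGF-β library of replicate 1 or of replicate 3, with log2 fold changes between 3.78 and 5.50 over all alternatives.

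On the falling side the steepest change was that of Slc10a6, a transporter of sulfated steroids, which read 181.9, 181.2 and 131.4 normalized counts in the vehicle libraries and 11.8, 9.65 and 4.54 in the TGF-β libraries (log2 fold change -4.28, s.e. 0.46, edgeR adjusted p = 3.6e-05). Scara5, a ferritin receptor and a marker of resting fibroblasts, went from 469.4, 460.4 and 353.7 to 49.4, 46.9 and 19.3 (log2 fold change -3.50, s.e. 0.42, edgeR adjusted p = 7.2e-05). The cyclin-dependent kinase inhibitor p57 (Cdkn1c), which holds cells out of the cycle, went from 149.2, 140.2 and 113 to 22.3, 16.5 and 14.8 (log2 fold change -2.89, s.e. 0.31, edgeR adjusted p = 3.6e-05). For each of these every TGF-β library was below every vehicle library, which the rule for choosing them required. The transcription factor Zbtb16, a glucocorticoid-inducible gene, fell (-3.47 ± 0.40), the translation factor Eef1a2 (-3.65 ± 0.27), the skeletal myosin Myh1 (-3.75 ± 0.41), the secreted protein Pamr1 (-3.39 ± 0.25) and the selenium-binding protein Selenbp1 (-3.19 ± 0.16).

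For a subset of the falling genes the vehicle libraries differed widely among themselves. The angiotensin II type 2 receptor (Agtr2) read 244, 446.7 and 67.6 in the vehicle and 27, 56.5 and 6.81 in the TGF-β libraries, so that the vehicle library of replicate 3 was near the TGF-β library of replicate 2 although each pair fell (log2 fold change -3.17, s.e. 0.30, edgeR adjusted p = 1.6e-05). The collagen chain Col6a6 read 933.4, 733.4 and 173.2 in the vehicle and 128.2, 81.4 and 17 in the TGF-β libraries (log2 fold change -3.03, s.e. 0.27, edgeR adjusted p = 1.1e-05). Neither gene was called in the 6 scramble libraries without the replicate block, and Agtr2 was not called without the block in the 12 either. Myoc, Gdpd2, Vipr2 and Akr1c14, among them a receptor, a secreted protein and enzymes, had log2 fold changes from -3.49 to -2.99. Myoc and Gdpd2 lost their calls without the block. Also among the 20 were Ypel4, Mturn, Rerg and the neutrophil chemokine Cxcl5, which went from 2878, 3417 and 4135 to 812.5, 762.5 and 238.3.

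Ranked by the change in TPM, which weighs a gene by its abundance, the leading genes were others. The ranking took called genes only and left out genes of the mitochondrial genome and those with provisional symbols. Periostin (Postn), a matricellular protein that marks the activated fibroblast, read 16153, 20712 and 28474 normalized counts in the vehicle libraries and 95912, 91976 and 116371 in the TGF-β libraries (log2 fold change 2.24, s.e. 0.11, edgeR adjusted p = 4.5e-07). Its mean level went from 541.0 to 2458 TPM, the widest rise in this ranking. Transgelin (Tagln), Acta2, thymosin β4 (Tmsb4x, 1.15 ± 0.08) and β-actin (Actb, 0.62 ± 0.07) followed, all of them cytoskeletal. The widest falls in TPM were those of biglycan (Bgn, -0.32 ± 0.07), β2-microglobulin (B2m, -0.52 ± 0.07), collagen type III (Col3a1, -0.62 ± 0.12), ferritin heavy chain (Fth1, -0.69 ± 0.08) and decorin (Dcn, -1.18 ± 0.09). Dcn read 34115, 33986 and 38380 normalized counts in the vehicle libraries and 16713, 13934 and 16347 in the TGF-β libraries, well apart. Bgn is less certain (log2 fold change -0.27 at the smallest over all alternatives). Its call was lost without the vehicle library of replicate 2 and without the TGF-β library of replicate 2 or of replicate 3. It was also lost in the 6 scramble libraries alone with the block, and without the block. The calls of B2m and Col3a1 were lost without the block.

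**Figure D2:**
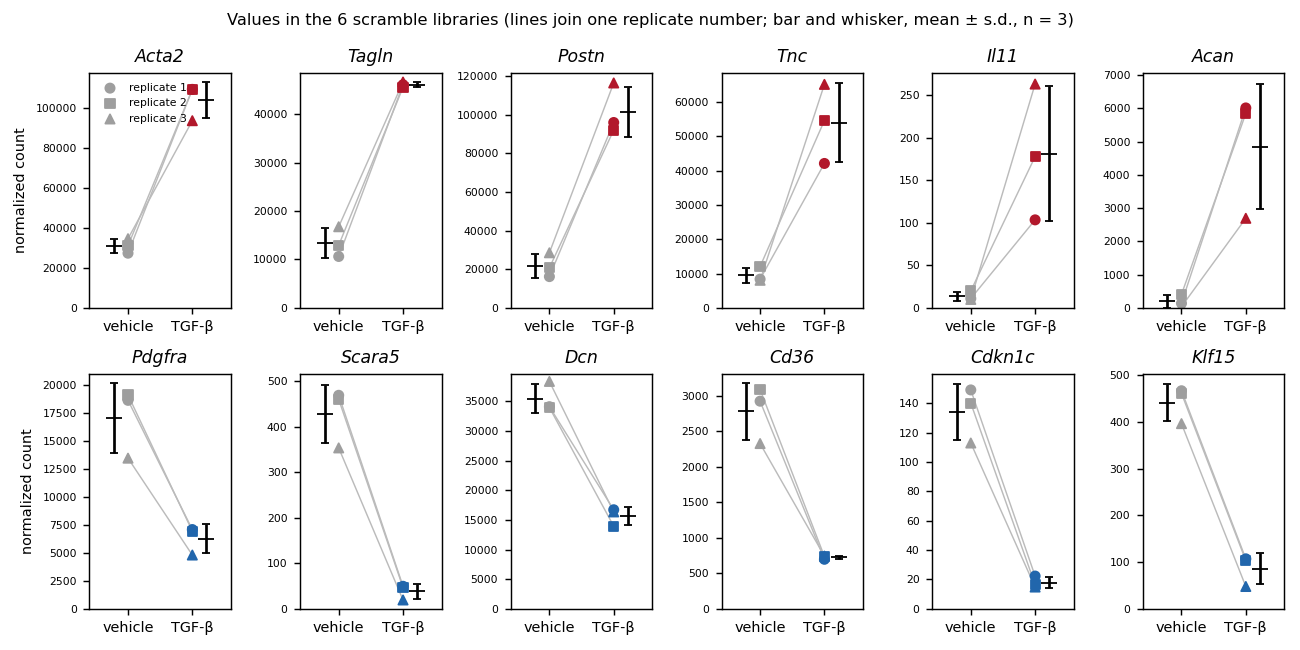
Normalized counts in each of the 6 scramble libraries for 6 genes that rose (upper row, red with TGF-β) and 6 that fell (lower row, blue with TGF-β), each panel with its own axis from 0, gray lines joining libraries of the same replicate number, and bar and whisker giving the mean ± s.d. of 3 libraries. In all 12 panels every line runs the same way and the 2 groups do not overlap, for instance Cd36 at 2920, 3084 and 2324 in the vehicle and 696.1, 734.9 and 741 in the TGF-β libraries.

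The pathway that TGF-β itself uses was rewritten at several levels. Of the 14 ligands, activin chains and latent binding proteins tested, 8 rose (5 without the replicate block) and 2 fell, with a median log2 fold change of 0.59. Tgfb1, the main isoform of wounded tissue, went from 1124, 1189 and 1136 to 2313, 2187 and 2609 (log2 fold change 1.04, s.e. 0.10, edgeR adjusted p = 1.7e-05), and no TGF-β library fell within the vehicle range. Tgfb3 rose by 0.53 ± 0.08 with the block only, whereas Tgfb2 differed by 0.11 ± 0.09 and did not pass. The latent TGF-β binding proteins, which anchor the inactive cytokine in the matrix, rose for Ltbp2 (2.37 ± 0.28), Ltbp1 (1.23 ± 0.12) and Ltbp4 (0.96 ± 0.11), while Ltbp3 was at -0.00 ± 0.08. Ltbp2 went from 9860, 19367 and 6932 to 53355, 60991 and 59244. The activin chain Inhba rose (1.31 ± 0.15) while Inhbb fell (-1.57 ± 0.25), and the milieu molecules that hold latent TGF-β on the cell surface split likewise, with Lrrc32 higher (1.04 ± 0.20) and the macrophage-type Nrros lower (-1.10 ± 0.12). Inhbb, Lrrc32 and Gdf11 (0.65 ± 0.13) were not called without the block, Inhba was not called in the 6 scramble libraries without it, and Nrros was not called with an offset for transcript length. Lrrc32 and Gdf11 also lost their calls without the TGF-β library of replicate 1 or of replicate 2, and Gdf11 without the vehicle library of replicate 1, with log2 fold changes over all alternatives of 0.84 to 1.23 and 0.51 to 0.81. Inha and the stress cytokine Gdf15 did not pass (-0.90 ± 0.26 and 0.52 ± 0.15).

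At the receptors and the SMADs, 7 of 18 members rose and 3 fell, and the median was 0.15. The type I receptor Tgfbr1 rose slightly (0.48 ± 0.09), the type II receptor Tgfbr2 was level (0.03 ± 0.11) and the co-receptor betaglycan (Tgfbr3) fell from 1218, 1640 and 1157 to 480.9, 515.7 and 229.2 (log2 fold change -1.76, s.e. 0.23, edgeR adjusted p = 1.2e-04). Smad3, the SMAD that carries most of the fibrotic signal, itself fell from 2180, 2361 and 2747 to 1223, 1311 and 1361 (log2 fold change -0.90, s.e. 0.10, edgeR adjusted p = 4.0e-05), whereas Smad2 (0.15 ± 0.05) and the shared partner Smad4 (-0.00 ± 0.05) did not pass. All 3 TGF-β libraries lay below the vehicle range for Tgfbr3 and Smad3. Among the feedback inhibitors, Pmepa1, which removes SMADs from the receptor, rose most (from 6381, 6435 and 7386 to 22011, 19757 and 24736, log2 fold change 1.72 ± 0.08), followed by the corepressor Skil (0.86 ± 0.07), Ldlrad4 (0.66 ± 0.07) and the ubiquitin ligase Smurf1 (0.47 ± 0.05). The inhibitory Smad7 stood at 0.04 ± 0.10, Smad6 at -0.47 ± 0.17, Ski at 0.03 ± 0.05, Smurf2 at 0.15 ± 0.09 and endoglin (Eng) at 0.18 ± 0.06, none of which passed. The calls of Acvrl1 (-0.67 ± 0.14), Bambi (0.67 ± 0.13) and Tgif1 (0.31 ± 0.07) each rested on single libraries, being lost without the TGF-β library of replicate 2, the vehicle library of replicate 3 and the vehicle library of replicate 1 among others, with log2 fold changes over all alternatives of -0.82 to -0.47, 0.45 to 0.76 and 0.22 to 0.36.

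Genes known as direct TGF-β or SMAD3 targets had the second-highest median of the 61 lists, 1.33, with 18 of 27 members higher and 2 lower. Heparin-binding EGF-like growth factor (Hbegf) went from 425.8, 428.1 and 537.9 to 2415, 2526 and 4324, tenascin C (Tnc) from 8361, 12054 and 8022 to 42111, 54629 and 65171, and Ccn4, a secreted WNT-inducible protein, from 2052, 4740 and 4078 to 14025, 16713 and 15528. Each had 3 TGF-β values above 3 vehicle values (log2 fold changes 2.70 ± 0.17, 2.50 ± 0.22 and 2.13 ± 0.21). Connective tissue growth factor (Ccn2) rose by 1.13 ± 0.10, the NADPH oxidase Nox4 by 1.35 ± 0.20 and the protease inhibitor Timp1 by 1.94 ± 0.11. Members that fell were the lipoprotein lipase inhibitor Angptl4 (-2.05 ± 0.14) and Snai2 (-0.75 ± 0.10, called only with the replicate block). Fibronectin (Fn1, 0.35 ± 0.09), Cdkn1a (0.07 ± 0.11) and Junb (0.31 ± 0.09) did not pass.

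**Figure D3:**
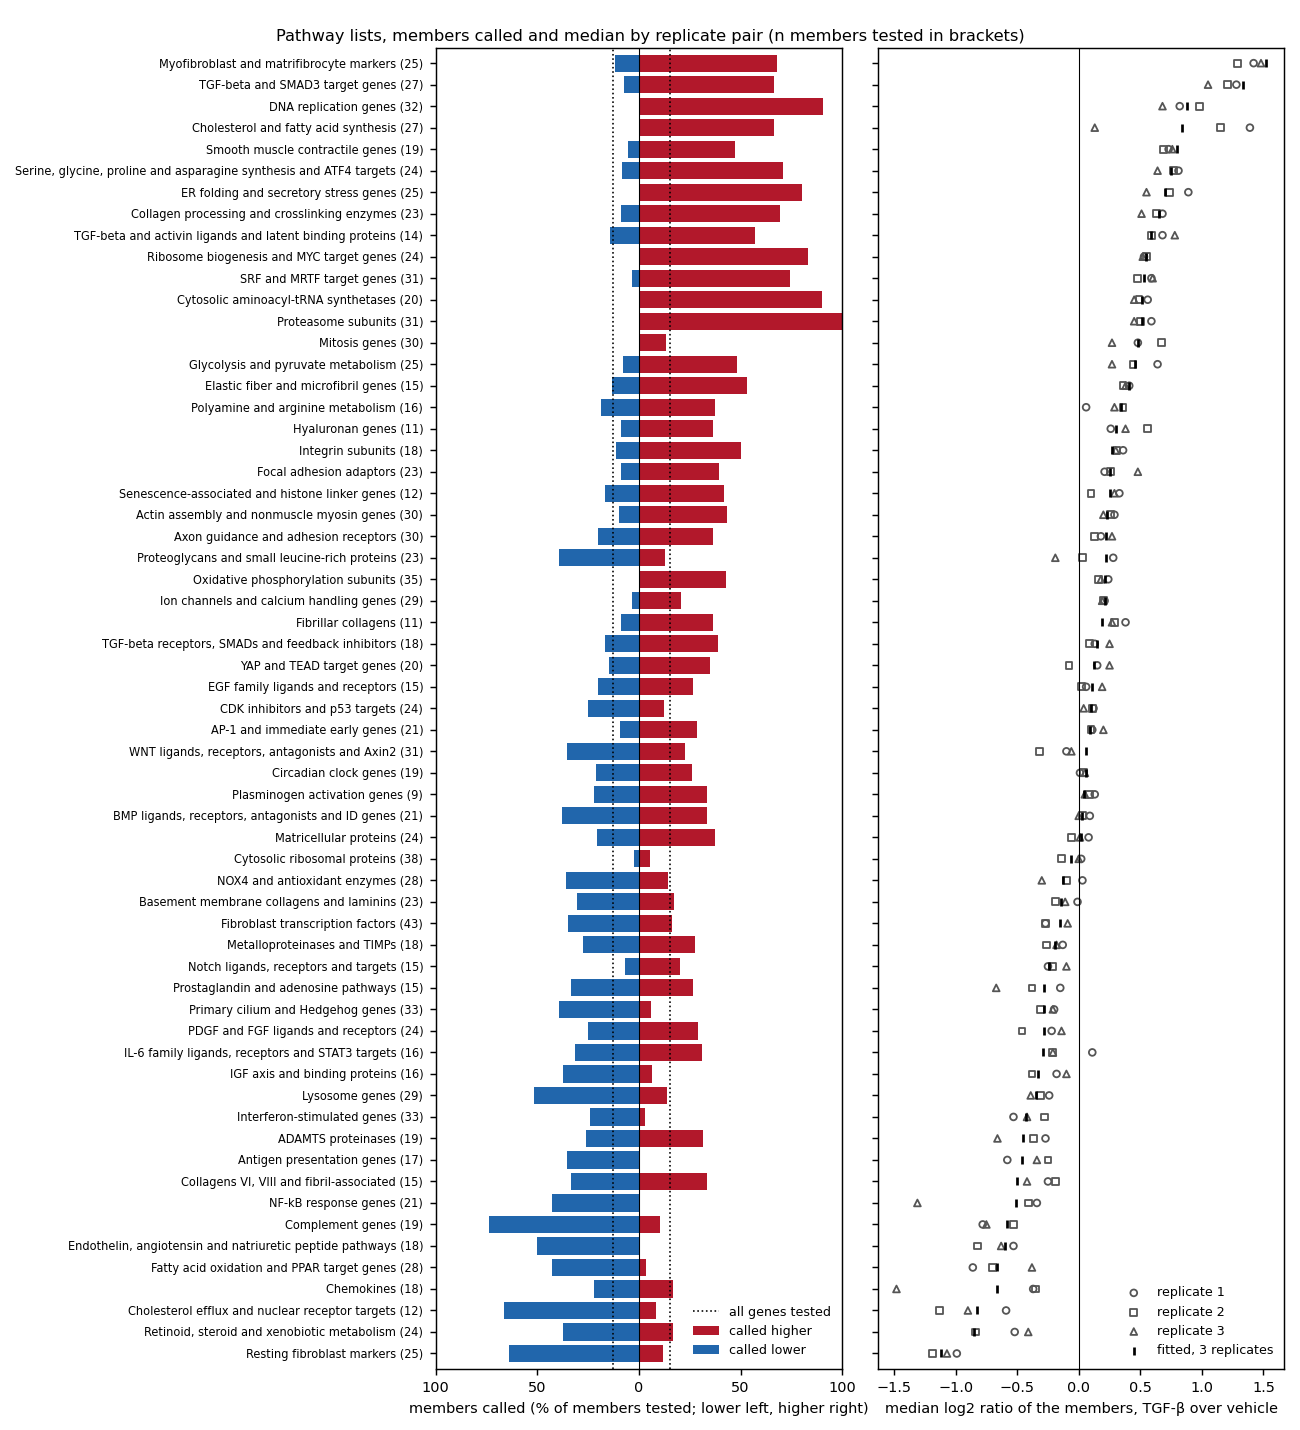
The left panel gives, for each of the 61 pathway lists, the percentage of tested members called lower (blue, to the left) and higher (red, to the right), with dotted lines at the percentages over all genes tested (13% and 15.4%), and the right panel the median log2 ratio of the members in each replicate pair (open symbols) and from the fit (black bars). Lists are ordered by the fitted median, from resting fibroblast markers (-1.12) to myofibroblast markers (1.52), and all 31 proteasome subunits were called higher.

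The neighbouring BMP pathway, which signals through other SMADs to the ID transcriptional inhibitors, was called in both directions, with 7 of 21 members higher and 8 lower (4 without the block) and a median of 0.03. Bmp4 fell from 3688, 2561 and 1874 to 1136, 883.8 and 643.4 (log2 fold change -1.60, s.e. 0.16, edgeR adjusted p = 2.9e-05) and the target Id2 fell from 2709, 2345 and 1931 to 1024, 850.7 and 812.5 (log2 fold change -1.37, s.e. 0.08, edgeR adjusted p = 8.7e-07). The activin and BMP antagonist Fstl3 rose from 721, 750.8 and 987.5 to 5086, 4827 and 6672, and the type IB receptor Bmpr1b from 44.7, 93.1 and 55.3 to 225.8, 402.6 and 278. For these 4 genes the groups did not overlap, and the latter pair had log2 fold changes of 2.75 ± 0.08 and 2.25 ± 0.14. Among WNT genes 11 of 31 fell (3 without the block) and 7 rose (4 without it). The noncanonical ligand Wnt11 rose from 107.8, 96.8 and 46.7 to 393.9, 479.8 and 615.1 (log2 fold change 2.53, s.e. 0.29, edgeR adjusted p = 5.9e-05) and Wnt5a rose by 0.76 ± 0.11, whereas the receptors Fzd4 (-0.97 ± 0.09) and Fzd7 (-1.02 ± 0.07) fell. The secreted antagonist Sfrp2 and the agonist Rspo1 were both lower (-2.16 ± 0.15 and -2.36 ± 0.21), with the block only. Notch genes were called in 26.7% of cases, near the 28.4% of all genes tested. Of 15 Notch genes, Notch3 fell (from 4361, 3234 and 1794 to 1016, 722.5 and 467.6) while Notch4 (from 157.9, 212.2 and 366 to 1567, 1619 and 2527) and the target Heyl (from 387.7, 409.5 and 332.8 to 2359, 1893 and 2094) rose, each without overlap (log2 fold changes -2.07 ± 0.11, 2.97 ± 0.17 and 2.48 ± 0.14).

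Growth factor systems changed their ligands and receptors separately. In the PDGF and FGF group 7 of 24 members rose (4 without the block) and 6 fell. Pdgfra, the receptor that marks resting fibroblasts, went from 18620, 19100 and 13454 to 7076, 6934 and 4800 (log2 fold change -1.45, s.e. 0.13, edgeR adjusted p = 1.3e-05), while its ligand Pdgfc rose from 163.4, 250.7 and 194.1 to 700.8, 1035 and 1101 (log2 fold change 2.20, s.e. 0.26, edgeR adjusted p = 6.0e-05). Pdgfb rose by 1.06 ± 0.09, Pdgfd fell (-1.42 ± 0.09), and the abundant receptor Fgfr1 and ligand Fgf2 were both at 0.01 and did not pass. In the IGF axis 6 of 16 members fell and 1 rose. The ligand Igf1 went from 6295, 6748 and 6813 to 14803, 14158 and 14922 (log2 fold change 1.14, s.e. 0.11, edgeR adjusted p = 2.1e-05), whereas the binding proteins Igfbp4 (from 38515, 33591 and 15979 to 7911, 5831 and 3929) and Igfbp3 (from 3797, 3677 and 3382 to 803.1, 901.8 and 678.6) fell. Both binding proteins were separated from vehicle in every library, with log2 fold changes of -2.27 ± 0.16 and -2.21 ± 0.21. Of the IL-6 family 5 of 16 members rose (3 without the vehicle or the TGF-β library of replicate 2) and 5 fell (3 without the block). All 5 that rose were ligands or their partners, with Lif at 1.89 ± 0.11 beside Il11, while all 5 that fell were receptor chains, including Il6ra (-1.72 ± 0.19) and the shared signal transducer Il6st, or gp130 (-0.80 ± 0.15). The call of Il6 (0.82 ± 0.18) was lost without any of the vehicle or TGF-β libraries of replicates 1 and 2, with log2 fold changes over all alternatives of 0.64 to 1.06.

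Vasoactive and inflammatory signals were called lower more often than higher. Of 18 members of the endothelin, angiotensin and natriuretic peptide pathways none was called higher, although the largest log2 fold change in the list was 3.38. In the 6 scramble libraries alone 1 was called higher. There were 9 called lower (3 without the block, and 5 without the vehicle or the TGF-β library of replicate 2). They included the angiotensin receptor Agtr1a, 180.8, 235.8 and 34.4 in the vehicle and 20, 42.7 and 6.81 in the TGF-β libraries (log2 fold change -2.72 ± 0.32, called only with the block), and the soluble guanylate cyclase subunit Gucy1a1 (-1.60 ± 0.14). Among prostaglandin and adenosine genes Ptgs2 and the prostacyclin synthase Ptgis (0.86 ± 0.11) rose while the prostacyclin receptor Ptgir fell (from 558.7, 542.3 and 524.4 to 199.9, 169.6 and 82.8, log2 fold change -1.92 ± 0.21). Chemokines were called in both directions, with Ccl17 and the membrane-bound Cx3cl1 (1.58 ± 0.07) higher, Cxcl1 (-2.29 ± 0.40) and Cxcl5 (-2.67 ± 0.40) lower, and the abundant Cxcl12 (-0.20 ± 0.12) and Ccl2 (-0.51 ± 0.30) not called. For Cxcl5 and Cxcl1 the fall was deepest in replicate 3, in which the median log2 ratio over the 18 chemokines was -1.48, against -0.37 and -0.35 in replicates 1 and 2.

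Many genes of the contractile apparatus were higher with TGF-β. Of 31 known targets of SRF and its coactivator MRTF, which sense actin assembly, 23 rose (15 without the block) and 1 fell, with a median of 0.53. Of 19 smooth muscle contractile genes 9 rose (4 without the block), among them smoothelin (Smtn, 0.68 ± 0.08), and 1 fell. Smooth muscle α-actin (Acta2), the defining protein of the myofibroblast, read 27336, 31090 and 34595 normalized counts in the vehicle libraries and 109330, 109268 and 93647 in the TGF-β libraries (log2 fold change 1.74, s.e. 0.11, edgeR adjusted p = 1.8e-06). Transgelin (Tagln) read 10614, 12937 and 16760 normalized counts in the vehicle libraries and 46124, 45600 and 46686 in the TGF-β libraries (log2 fold change 1.80, s.e. 0.15, edgeR adjusted p = 8.9e-06). For both genes each TGF-β library was more than the largest vehicle library by a margin wider than the spread within either group. Calponin (Cnn1) rose by 2.68 ± 0.35 and the regulatory light chain Myl9 by 1.27 ± 0.22, both calls lost in the 12 libraries without the replicate block, Csrp2 by 1.91 ± 0.08 and the adhesion protein Pdlim7 by 0.87 ± 0.06. Vinculin (Vcl, -0.13 ± 0.09), Lmod1 (0.26 ± 0.26) and Pdlim5 (-0.16 ± 0.07) did not pass, and Fhl1 was lower (-1.02 ± 0.11, with the block only). Acta1, Acta2, Actg2 and Actb are near-identical over their coding sequence, so the division of reads among them depends on Salmon's estimate. Markers of smooth muscle cells and pericytes summed to 108.9 to 166.1 TPM with vehicle and 230 to 280 with TGF-β, with Smtn and Mcam the most abundant and Higd1b, Kcnj8 and Vtn under 1 TPM in all 6 libraries, and the part of those cells in the rise was not tested.

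SRF binds the CArG box, 10 bases that open with CC and close with GG around 6 bases of A or T, so promoters from 250 bases before to 50 after each start were searched for it on both strands (RefSeq, GRCm38.p6). It occurred in 9 of the 25 listed SRF targets with a promoter entry (36%), in 1.81% of all 27025 symbols with an entry, in 1.56% of the genes tested, in 1.84% of the genes called higher and in 1.42% of those called lower. The list was drawn from known targets, so its share is a description of the list. The promoters of 3 members are shown as examples of members that rose and hold the box, namely Acta1 at 3.87, Actg1, the cytoplasmic γ-actin, at 0.75, and Srf, the gene of the factor itself, at 0.41 (log2 fold changes). The latter 2 were picked with their values already known. The box was also found for members that did not rise, Fhl1 (-1.02 ± 0.11) and Vcl (-0.13 ± 0.09). Capitals mark the CArG boxes.
Acta1, GRCm38.p6 chr8:123894726-123895025, minus strand: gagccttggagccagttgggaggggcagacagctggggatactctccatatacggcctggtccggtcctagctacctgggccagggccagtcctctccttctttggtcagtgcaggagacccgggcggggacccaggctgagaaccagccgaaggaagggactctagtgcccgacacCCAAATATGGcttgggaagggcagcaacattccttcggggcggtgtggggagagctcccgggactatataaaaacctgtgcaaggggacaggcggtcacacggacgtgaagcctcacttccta
Actg1, GRCm38.p6 chr11:120348446-120348745, minus strand: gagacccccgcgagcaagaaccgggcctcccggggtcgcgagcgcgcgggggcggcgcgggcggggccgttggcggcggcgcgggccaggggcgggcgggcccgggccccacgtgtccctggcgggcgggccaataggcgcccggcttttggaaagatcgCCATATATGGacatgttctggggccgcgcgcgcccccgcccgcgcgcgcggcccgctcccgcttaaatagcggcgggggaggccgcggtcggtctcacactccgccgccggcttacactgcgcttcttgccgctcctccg
Srf, GRCm38.p6 chr17:46556113-46556412, minus strand: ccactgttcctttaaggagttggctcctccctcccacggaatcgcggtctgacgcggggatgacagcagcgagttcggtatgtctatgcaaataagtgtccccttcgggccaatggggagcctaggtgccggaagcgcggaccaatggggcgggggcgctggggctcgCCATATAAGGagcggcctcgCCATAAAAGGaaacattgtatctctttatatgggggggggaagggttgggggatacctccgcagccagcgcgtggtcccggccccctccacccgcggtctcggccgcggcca
The Srf promoter held 2 boxes and the other 2 held 1 each.

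Around the contractile core the actin and adhesion machinery moved less. Of 30 genes for actin assembly and nonmuscle myosin 13 rose and 3 fell, and their median was 0.23. Cofilin (Cfl1, 0.59 ± 0.08), which severs filaments, Tmsb4x, which binds monomers (from 12858, 14016 and 14052 to 29269, 29443 and 32322), and the myosin chains Myh9 (0.53 ± 0.07), Myl6 (0.58 ± 0.07) and Myl12a (0.62 ± 0.07) were among the highest or most abundant that rose, and the filopodial motor Myo10 fell (-0.52 ± 0.08). Focal adhesion adaptors rose in 9 of 23 cases, among them palladin (Palld, 1.09 ± 0.08), α-actinin 1 (Actn1, 0.88 ± 0.07) and Bcar1 (0.62 ± 0.08), while the tensins Tns2 (-0.56 ± 0.06) and Tns3 (-0.66 ± 0.09) fell. Integrins exchanged subunits, with 9 of 18 higher. The fibronectin receptor chain Itga5 went from 2763, 3386 and 3430 to 9064, 11843 and 11595 (log2 fold change 1.76, s.e. 0.10, edgeR adjusted p = 9.6e-07) and the collagen receptor chain Itga11 rose by 1.13 ± 0.09, whereas the collagen receptor chains Itga1 and Itga2 were lower (-0.74 ± 0.10 and -1.19 ± 0.13, with the block only). Itga5 was clear of the vehicle range in all 3 libraries. The adhesion molecules Mcam (from 262.5, 448 and 296 to 2956, 2923 and 3027, log2 fold change 3.17 ± 0.16) and Ncam1 (2.22 ± 0.23) and the guidance ligand Sema7a (2.29 ± 0.31) rose as well.

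Extracellular matrix genes were called in both directions. Of 11 fibrillar collagens, the bulk of the scar, 4 rose and 1 fell, with a median of 0.19. The α1 chain of collagen type I (Col1a1) went from 237359, 269239 and 252899 to 335992, 365810 and 348963 (log2 fold change 0.47, s.e. 0.07, edgeR adjusted p = 4.4e-04), which is a small rise on a high level, while the α2 chain (Col1a2) stood at 0.12 ± 0.08 and did not pass. Col3a1 went the other way, from 288644, 311128 and 291959 to 225206, 205967 and 155917. Its 3 TGF-β libraries were all below the vehicle libraries, but the call was lost without the block and without the TGF-β library of replicate 3, with log2 fold changes over all alternatives of -0.72 to -0.47. The minor fibril chains Col5a1 (0.75 ± 0.10) and Col11a1 (1.09 ± 0.13) rose. Among other collagens, the anchoring fibril chain Col7a1 rose from 308.2, 362.3 and 598.1 to 1718, 2712 and 4663 (log2 fold change 2.80, s.e. 0.19, edgeR adjusted p = 2.8e-06) and the fibril-associated Col12a1 by 1.02 ± 0.07, while Col14a1 (-0.77 ± 0.12) and the basement membrane linkers Nid1 (-0.63 ± 0.08) and Nid2 (-1.35 ± 0.13) fell. The network chains Col4a1 (0.05 ± 0.09) and Col4a2 (-0.14 ± 0.10) did not pass.

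The enzymes that build and crosslink collagen rose in 16 of 23 cases (10 without the block) and fell in 2 (1 without it), with a median of 0.65. The lysyl oxidase Loxl3 went from 2034, 2272 and 2945 to 6958, 6449 and 8089 (log2 fold change 1.58, s.e. 0.13, edgeR adjusted p = 6.6e-06), the collagen chaperone Fkbp10 rose by 1.11 ± 0.07, the procollagen proteinase Bmp1 by 0.49 ± 0.06, and the lysyl oxidase Loxl2 by 1.90 ± 0.15 with the block only. The procollagen proteinase enhancer Pcolce fell (-0.47 ± 0.06), and the lysyl hydroxylase Plod2 stood at -0.11 ± 0.06. For elastic fibers 8 of 15 members rose (4 without the block), led by the Ltbp genes, while Efemp1 (from 3127, 3583 and 4019 to 993.6, 1044 and 907.9, log2 fold change -1.86 ± 0.14) and Emilin2 (-0.91 ± 0.11) fell. The abundant fibrillin Fbn1 (0.26 ± 0.07) did not pass.

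Matricellular proteins, which act on cells rather than bear load, split into a rising and a falling set, 9 and 5 of 24 (the latter 3 without the block). To Thbs4, Tnc, Postn, Ccn4 and Ccn2 on the rising side stood opposed Smoc2 (from 3606, 3269 and 2282 to 1218, 1179 and 835.2, log2 fold change -1.50 ± 0.12) and, with less certainty, Sparcl1 (-1.34 ± 0.17, not called without the block) and Fbln1 (-1.63 ± 0.13, not called in the 6 scramble libraries without it). Several small leucine-rich proteoglycans, which coat collagen fibrils and belong to the resting matrix, fell, among them prolargin (Prelp, from 44249, 42997 and 36959 to 12482, 8700 and 3785) and osteoglycin (Ogn, from 7693, 6061 and 6842 to 2092, 2034 and 3301) beside Dcn. Neither overlapped its vehicle range (log2 fold changes -2.46 ± 0.35 and -1.50 ± 0.14). The large hyaluronan-binding proteoglycans rose instead, versican (Vcan) by 1.41 ± 0.13 and Acan as above, together with the hyaluronan synthase Has2 (from 221.1, 330.1 and 289.9 to 1150, 1372 and 1040, log2 fold change 2.09 ± 0.22) and the hyaluronan receptor Cd44 (0.96 ± 0.09). In all, 3 proteoglycans of 23 rose (5 in the 6 scramble libraries alone) and 9 fell (4 without the block), and the median over the list, called or not, was 0.22.

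Matrix proteases and their inhibitors were called in both directions, with 5 of 18 metalloproteinases and TIMPs higher and 5 lower. The inhibitor Timp1 went from 3335, 4433 and 6142 to 16040, 15388 and 21170 (log2 fold change 1.94, s.e. 0.11, edgeR adjusted p = 8.7e-07), Timp3 rose by 0.42 ± 0.07 and Timp2 fell (-0.93 ± 0.08). The membrane collagenase Mmp14 (0.83 ± 0.05) and the gelatinase Mmp9 (1.95 ± 0.26) rose, and the stromelysin family member Mmp11 (-1.43 ± 0.11) and the macrophage elastase Mmp12 (-1.39 ± 0.15) fell. Of the ADAMTS proteinases, Adamts16 (3.90 ± 0.35), Adamts12 (1.79 ± 0.11) and Adamts8 (1.59 ± 0.22) rose, while Adamts9 (-2.21 ± 0.27), Adamts5 (-1.42 ± 0.19) and Adamts7 (-0.87 ± 0.14) fell. Tissue plasminogen activator (Plat) fell (-1.08 ± 0.10) and the urokinase receptor Plaur (1.52 ± 0.11) rose.

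**Figure D4:**
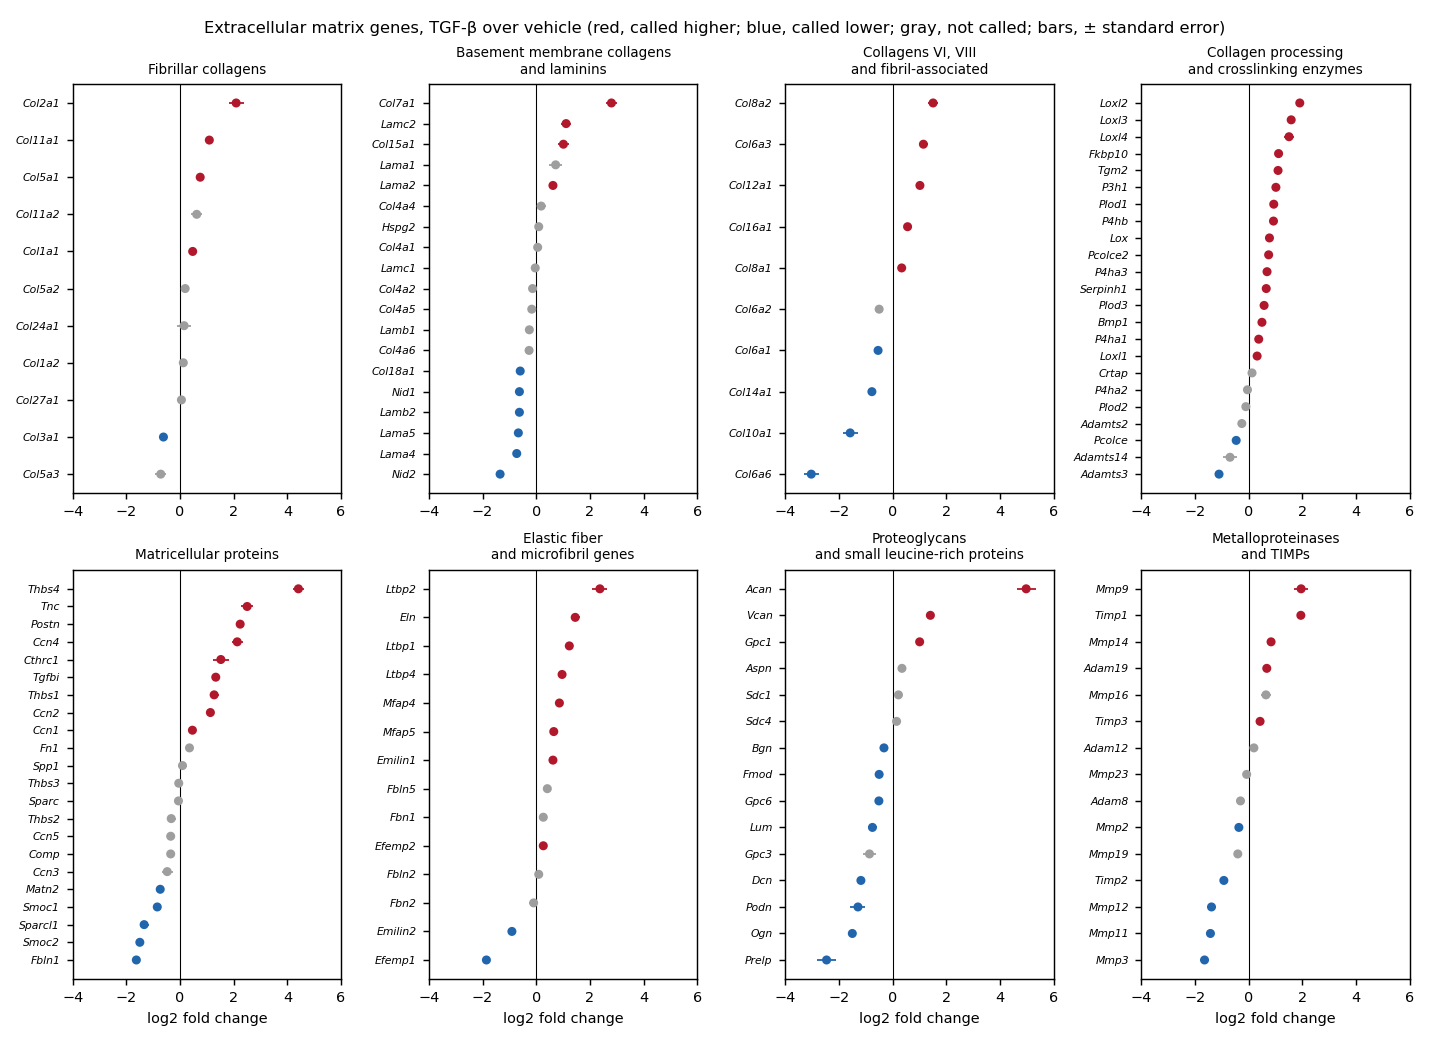
Log2 fold change, TGF-β over vehicle (horizontal, bars ± standard error), of matrix genes with a normalized count of at least 100 in either group, in 8 panels by role, red for called higher, blue for called lower and gray for not called. The collagen enzymes lie mostly to the right of 0, the proteoglycans mostly to the left, and the fibrillar collagens close to it, with Col1a1 at 0.47 and Col3a1 at -0.62.

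Genes of the secretory pathway rose. Of 25 genes for protein folding in the endoplasmic reticulum (ER) 20 rose and none fell, with a median of 0.7. Hyou1, an ER chaperone, went from 6398, 6461 and 7384 to 15196, 13147 and 14180 (log2 fold change 1.07, s.e. 0.07, edgeR adjusted p = 1.8e-06), Manf, a secreted ER stress protein, rose by 1.04 ± 0.09 and Sdf2l1 by 1.02 ± 0.12. The transcription factors Creb3l1 (1.04 ± 0.05) and Creb3l2 (1.03 ± 0.11), which drive secretory genes in collagen-making cells, rose as well, while Sel1l (0.14 ± 0.06) and Pdia6 (0.65 ± 0.26) did not pass. The ER stress element, spelled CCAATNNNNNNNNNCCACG and searched on both strands, was found in 7 of the 21 listed genes with a promoter entry (33.3%), against 0.137% of all symbols, 0.169% of the genes tested, 0.415% of the genes called higher and 0.0566% of those called lower. Shown are the promoters of Hspa5 (BiP, 0.86), the main ER chaperone, and of Hsp90b1 (GRP94, 0.81), both picked after their values were seen and given with their log2 fold changes. Capitals mark the elements.
Hspa5, GRCm38.p6 chr2:34771840-34772139, plus strand: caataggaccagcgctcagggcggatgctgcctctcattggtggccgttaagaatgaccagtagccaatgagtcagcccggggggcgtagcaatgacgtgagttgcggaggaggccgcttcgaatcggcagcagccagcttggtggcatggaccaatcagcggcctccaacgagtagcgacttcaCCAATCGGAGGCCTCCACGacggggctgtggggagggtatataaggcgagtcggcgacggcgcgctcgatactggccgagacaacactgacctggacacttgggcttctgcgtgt
Hsp90b1, GRCm38.p6 chr10:86705395-86705694, minus strand: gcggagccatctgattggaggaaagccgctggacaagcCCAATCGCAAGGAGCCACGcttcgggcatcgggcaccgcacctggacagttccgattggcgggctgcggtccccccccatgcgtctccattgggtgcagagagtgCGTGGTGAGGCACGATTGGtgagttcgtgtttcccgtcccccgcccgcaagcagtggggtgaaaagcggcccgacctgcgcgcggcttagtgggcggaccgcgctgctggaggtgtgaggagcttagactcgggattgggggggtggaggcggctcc
Hsp90b1 held 2 elements, on opposite strands. As with the CArG box, the share is a description of a list of known genes. The shares among called genes rest on 9 of 2169 called higher, the listed genes that rose included, and on 1 of 1766 called lower.

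Amino acid supply and tRNA charging rose together with folding. Of 24 genes of serine, glycine, proline and asparagine synthesis and of the ATF4 response 17 rose (4 without the block) and 2 fell (1 without it), with a median of 0.75. The mitochondrial folate enzyme Mthfd1l (from 272.3, 316.4 and 409 to 639.7, 762.5 and 785.3, log2 fold change 1.15 ± 0.10) and the neutral amino acid transporter Slc1a4 (1.22 ± 0.10) rose, and the glutamine transporter Slc1a5 fell (from 2726, 2591 and 3137 to 1415, 1452 and 1432, log2 fold change -0.97 ± 0.13). Cytosolic aminoacyl-tRNA synthetases rose in 18 of 20 cases, by a median of 0.51, but only 5 of them without the block. The threonyl enzyme Tars was the highest and rose from 2226, 2226 and 2902 to 4082, 4336 and 4985 (log2 fold change 0.87, s.e. 0.07, edgeR adjusted p = 7.3e-06). Arginine and polyamine genes included the ornithine decarboxylase Odc1 (1.28 ± 0.07), which opens polyamine synthesis, the spermidine synthase Srm (1.20 ± 0.09) and the dimethylarginine hydrolase Ddah1 (1.48 ± 0.09), all higher, while Ddah2 fell (-1.09 ± 0.12).

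Genes of glucose use rose and genes of lipid uptake fell. Of 25 genes of glycolysis and pyruvate metabolism 12 rose and 2 fell. The lactate exporter Slc16a3 went from 147, 229.6 and 189.1 to 719.6, 1131 and 595.8 (log2 fold change 2.09, s.e. 0.18, edgeR adjusted p = 8.8e-06), the glucose transporter Slc2a1 rose by 1.10 ± 0.09, Pfkfb3 by 1.06 ± 0.13 and enolase 1 (Eno1) by 0.86 ± 0.11. The pair that fell, Pdk2 (-1.03 ± 0.08) and Pdk4 (-1.10 ± 0.13), encodes kinases that shut pyruvate dehydrogenase. Among fatty acid oxidation and PPAR target genes 12 of 28 fell, with a median of -0.66. The fatty acid transporter Cd36 went from 2920, 3084 and 2324 to 696.1, 734.9 and 741 (log2 fold change -1.93, s.e. 0.13, edgeR adjusted p = 2.3e-06) and lipoprotein lipase (Lpl) from 12374, 14617 and 16087 to 2917, 2737 and 3189 (log2 fold change -2.28, s.e. 0.10, edgeR adjusted p = 3.6e-07), and the fatty acid binding protein Fabp4 fell (-2.33 ± 0.18). For the first 2 the groups did not overlap. The oxidation enzyme Hadha did not pass (-0.02 ± 0.06) and was the most abundant of those that did not.

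Oxidative phosphorylation subunits rose by small amounts, 15 of 35 (9 without the block, and 9 without the vehicle library of replicate 3 or the TGF-β library of replicate 1 or 2), with a median of 0.21 and none lower. They included cytochrome c (Cycs, 0.86 ± 0.05), Cyc1 (0.42 ± 0.06) and Atp5b (0.48 ± 0.06). These genes are encoded in the nucleus. Reads from the mitochondrial genome went the other way and made up 2.34 to 2.83% of reads with vehicle and 1.86 to 2.16% with TGF-β, lower in each of the 3 pairs.

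Cholesterol genes differed by replicate. Of 27 genes of cholesterol and fatty acid synthesis 18 rose and none fell, and the median was 0.84. The median log2 ratio of the members was 1.39 and 1.15 in replicates 1 and 2 but 0.13 in replicate 3. The replicates differed mainly with vehicle, where the list held 0.283, 0.297 and 0.559% of reads. With TGF-β it held 0.69, 0.648 and 0.622%. The count of genes that rose was 9 without the block and 11 in the 6 scramble libraries alone. It was 7 and 6 without the vehicle libraries of replicates 1 and 2, and 8 without the TGF-β library of either. Over all fits with 1 library left out it ran from 6 to 27. Genes of cholesterol efflux and of nuclear receptors moved down, 8 of 12 lower and 1 higher (0 without the vehicle or the TGF-β library of replicate 1 or 2). Abca8a, a transporter of the ABC family, read 14334, 13738 and 12540 normalized counts in the vehicle libraries and 2904, 2110 and 1941 in the TGF-β libraries (log2 fold change -2.57, s.e. 0.22, edgeR adjusted p = 1.0e-05), and Abca8b (-1.57 ± 0.14) and Abca9 (-1.41 ± 0.17) fell with it. These neighbours are close copies, and reads could be divided among them by the estimate.

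Degradation was divided between compartments. All 31 proteasome subunits tested rose (30 without the block), by a median of 0.51, from 0.26 to 0.8. The catalytic-core subunit Psmb2 went from 1171, 1226 and 1247 to 2114, 2037 and 2207 and the lid subunit Psmd14 from 1281, 1582 and 1674 to 2538, 2456 and 2535 (log2 fold changes 0.80 ± 0.07 and 0.74 ± 0.08). Both rose little in size but without overlap. Lysosomal genes fell instead, 15 of 29 lower and 4 higher (2 without the block, or without the vehicle library of replicate 1 or 2 or the TGF-β library of replicate 1 or 3), with a median of -0.35. They included prosaposin (Psap, from 32795, 31845 and 30854 to 19714, 18155 and 18995, log2 fold change -0.75 ± 0.06), acid lipase (Lipa, -0.78 ± 0.06), acid α-glucosidase (Gaa, -0.85 ± 0.08) and cathepsin A (Ctsa, -0.71 ± 0.05), whereas Ctsc (0.63 ± 0.08) and the cholesterol exporter Npc1 (0.56 ± 0.07) rose. Macrophages are rich in lysosomes and their summed markers were lower with TGF-β in every library, and the part of those cells in the fall was not tested.

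Enzymes that handle oxidants, retinoids and foreign compounds were called lower more often than higher. Of 28 antioxidant genes 10 fell (6 without the block) and 4 rose (1 without it). Against the rise of Nox4, a source of hydrogen peroxide (from 905, 924.5 and 728.3 to 1970, 2136 and 2490, log2 fold change 1.35, s.e. 0.20, edgeR adjusted p = 2.5e-04), stood the falls of the glutathione transferases Gstm1 (from 4933, 4199 and 4837 to 1048, 795.6 and 720.6, log2 fold change -2.44 ± 0.20) and Mgst1 (-1.64 ± 0.25). Gstm1 has close paralogs, so its reads may be shared. Of 24 genes of retinoid, steroid and xenobiotic metabolism 9 fell and 4 rose (2 without the block), with a median of -0.85, the second lowest of the 61 lists. Fmo2, a flavin monooxygenase, went from 1722, 1555 and 1109 to 348.1, 275.8 and 231.5 (log2 fold change -2.35, s.e. 0.23, edgeR adjusted p = 2.2e-05), the retinaldehyde dehydrogenase Aldh1a1 fell (-1.21 ± 0.15), the aldehyde oxidase Aox1 (-1.60 ± 0.21) and the chemokine-like Rarres2 (-1.49 ± 0.16), and the retinoic acid binding protein Crabp1 rose by 1.85 ± 0.26.

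Ribosome biogenesis genes rose, while few of the ribosomal proteins themselves were called. Ribosome biogenesis and MYC target genes were higher in 20 of 24 cases and lower in none, with a median of 0.55. The nucleolar protein Nop56 went from 1226, 1395 and 1482 to 2520, 2566 and 2907 (log2 fold change 0.96, s.e. 0.07, edgeR adjusted p = 2.4e-06), and Nop58 rose by 0.79 ± 0.07. Of 38 cytosolic ribosomal proteins, 2 rose and 1 fell (0 to 2 in each direction with 1 library of the scramble cells left out), with a median of -0.06, and those most abundant, Rplp0 (-0.01 ± 0.07) and Rpl4 (-0.08 ± 0.08), did not pass.

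DNA replication genes rose in 29 of 32 cases, by a median of 0.88. The S-phase cyclins Ccne1 and Ccne2 went from 216.7, 176.2 and 302.1 to 579.7, 568.1 and 716.1 and from 279.9, 258.1 and 427.4 to 891.3, 911.4 and 1162, and the licensing factor Cdc6 from 138.3, 132.8 and 210 to 398.6, 390.2 and 451.7. All 3 were clear of vehicle in every library (log2 fold changes 1.43 ± 0.17, 1.63 ± 0.15 and 1.39 ± 0.15), and the helicase subunit Mcm6 (1.13 ± 0.10) and the ribonucleotide reductase Rrm2 (1.20 ± 0.14) rose with them. Mitosis genes were less settled, with 4 of 30 called, 0 without the block, 17 in a fit of the 6 scramble libraries alone, 9 with DESeq2, 1 with an offset for transcript length and between 0 and 13 when 1 library was left out. It was 0 without the scramble vehicle library of replicate 1 or 2 or the TGF-β library of replicate 2 or 3, 1 without the H1.0 siRNA vehicle library of replicate 2 or the H1.0 siRNA TGF-β library of replicate 1 or 2, 11 without the scramble vehicle library of replicate 3 or the H1.0 siRNA vehicle library of replicate 1, and 13 without that of replicate 3. The proliferation marker Mki67 (0.53 ± 0.15) and Top2a (0.51 ± 0.16) did not pass. Of 24 CDK inhibitors and p53 targets 6 fell and 3 rose (1 without the block), with a median of 0.1. Among the inhibitors p57 (Cdkn1c), as given above, and p27 (Cdkn1b, -0.49 ± 0.06) fell, while p21 (Cdkn1a) read 6013, 5290 and 7260 in the vehicle and 6566, 5689 and 7151 in the TGF-β libraries and did not pass. Of the replication-dependent linker histones, Hist1h1b (0.89 ± 0.15) and Hist1h1d (0.67 ± 0.11) rose and Hist1h1c (-0.16 ± 0.08) did not pass.

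Innate immune genes were called lower more often than higher. Complement genes fell in 14 of 19 cases (6 without the block) and rose in 2 (1 without the block, the vehicle library of replicate 1 or 2 or the TGF-β library of replicate 1), with a median of -0.58. Component C2 fell (-1.39 ± 0.20), while the macrophage-derived C1qa (-0.21 ± 0.07) and C1qb (-0.31 ± 0.13) did not pass. Of 33 interferon-stimulated genes 8 fell and 1 rose, but 1 fell without the block, 18 in the 6 scramble libraries alone, and 5 without the vehicle library of replicate 3 or the TGF-β library of replicate 1 or 2. The median was -0.43 and the 1 gene that rose was Isg20 (0.70 ± 0.13). The 27.3% of these genes that were called was near the 28.4% of all genes tested. Of 17 antigen presentation genes 6 fell and of 21 NF-κB response genes 9 fell, none rose in either list, and without the block the numbers were 0 and 4. Antigen presentation was down to 3 without the vehicle library of replicate 1 or 3 or the TGF-β library of replicate 1 or 2, and NF-κB to 5 and 4 without the TGF-β libraries of replicates 1 and 3. Tnfaip2 (-1.10 ± 0.09) was among the latter. Of 20 macrophage markers, 1 was called higher and 8 lower, and the part of macrophages in these falls was not tested.

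Marker genes of both fibroblast states changed. Markers of resting fibroblasts fell in 16 of 25 cases, rose in 3 (1 without the block) and had the lowest median of the 61 lists, -1.12. Beside Scara5, Pdgfra and Abca8a, the ecto-nucleotidase Entpd2 fell from 712.3, 668.9 and 309.5 to 162.3, 125.5 and 52.2 (log2 fold change -2.36, s.e. 0.12, edgeR adjusted p = 5.6e-07), and the epicardial and fibroblast factor Tcf21 was lower (-0.95 ± 0.17, with the block only). The 3 that rose were the chemokine Cxcl14 (1.13 ± 0.15) and the microfibril protein Mfap5 (0.65 ± 0.08), whose calls were lost without the block, and the collagen chain Col15a1 (1.01 ± 0.22), whose call was lost without any one of the vehicle libraries and without the TGF-β library of replicate 1 or of replicate 3, with log2 fold changes over all alternatives of 0.91 to 1.10. Of the myofibroblast and matrifibrocyte markers 17 of 25 rose and 3 fell, and their median of 1.52 was the highest. The factor Runx1 rose from 2177, 3135 and 2206 to 5712, 7275 and 4523 (log2 fold change 1.21, s.e. 0.09, edgeR adjusted p = 3.8e-06) and Meox1, a homeobox regulator of activated cardiac fibroblasts, from 102.4, 111.7 and 200.2 to 1112, 925.2 and 2549 (log2 fold change 3.42, s.e. 0.17, edgeR adjusted p = 4.4e-07). The members that fell were Col3a1, Itgbl1 (-0.62 ± 0.11) and the protease Fap (-1.10 ± 0.20, not called with an offset for transcript length), and Comp (-0.35 ± 0.10) did not pass.

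Of 43 transcription factors of fibroblasts 7 rose and 15 fell, the latter 3 without the block and 7 without the TGF-β library of replicate 2. The tendon factor Scx rose from 80.6, 110.4 and 100.7 to 433.9, 395.7 and 503.9 (log2 fold change 2.19, s.e. 0.19, edgeR adjusted p = 1.0e-05), and the glucocorticoid-inducible factor Klf15 fell from 467.2, 461.6 and 396.7 to 107, 103.4 and 47.7 (log2 fold change -2.41, s.e. 0.20, edgeR adjusted p = 8.8e-06). Ebf1 fell (-1.11 ± 0.06) and Foxp1 (0.80 ± 0.09) and Foxs1 (0.96 ± 0.16) rose, while Sox9 (0.21 ± 0.08) and Sox4 (0.33 ± 0.13) did not pass. Immediate early genes were selective, with Egr2 (from 102.4, 106.7 and 98.3 to 589.1, 634.3 and 903.3, log2 fold change 2.76 ± 0.18), Ier3 (1.38 ± 0.08) and Egr3 (1.10 ± 0.16) higher, the phosphatase Dusp1 lower (-1.09 ± 0.09) and Fosl2 (0.09 ± 0.07) not called. Clock genes also moved, Arntl (0.84 ± 0.09), Ciart (1.76 ± 0.28), Bhlhe40 (1.36 ± 0.17) and Bhlhe41 (1.19 ± 0.13) up and Per3 (-0.53 ± 0.06) and Rora (-0.51 ± 0.05) down, from cultures whose collection hour is not given in the sources used here.

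Genes of the primary cilium and of Hedgehog signaling fell in 13 of 33 cases (8 without the TGF-β library of replicate 2 or with an offset for transcript length) and rose in 2 (0 without the block). The ciliary trafficking gene Bbs2 went from 313.7, 273 and 251.8 to 123.5, 108.9 and 120.3 (log2 fold change -1.24, s.e. 0.10, edgeR adjusted p = 6.6e-06) and Ift122 fell (-0.65 ± 0.08), while the transducer Smo (-0.01 ± 0.06) did not pass. Among ion channels and calcium genes 6 of 29 rose (3 without the block) and 1 fell (2 without any one of the libraries of replicate 3). The 24.1% called was below the 28.4% of all genes tested. The calcium pump Atp2a2 (0.62 ± 0.05) and the stretch-gated channel Piezo1 (0.44 ± 0.05) rose and the sodium channel Scn7a fell (from 5298, 4264 and 5323 to 1840, 1464 and 1274, log2 fold change -1.71 ± 0.17). Only 2 non-coding entries rose by the rule used to name genes, both with symbols of protein genes, and of these Zfp469, annotated as a lincRNA, went from 1036, 1248 and 1982 to 4805, 5394 and 8222 (log2 fold change 2.13, s.e. 0.10, edgeR adjusted p = 3.1e-07).

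Whether the response of scramble cells differed from that of cells with H1.0 siRNA was asked in the same model as a difference of the 2 responses. It passed for 118 of 18028 genes (0.655%), 74 with a response more positive in H1.0 siRNA cells and 44 with one more negative, and for 8 genes without the block. It passed for 11 to 32 genes without any single library of replicate 1 or 2, for 17 without the scramble TGF-β library of replicate 3 and for 186 without the scramble vehicle library of replicate 3. Of the 20 genes that rose most in scramble cells, 18 were also called higher in H1.0 siRNA cells, as were 18 of the 20 that fell most on the lower side, and the difference passed for 1 and 0 of them. Tagln rose by 1.80 ± 0.15 in scramble cells and by 3.84 ± 0.17 in H1.0 siRNA cells, a difference of 2.05 ± 0.22 (edgeR adjusted p = 0.0021). Its mean level was nonetheless lower in H1.0 siRNA cells than in scramble cells, both with vehicle and with TGF-β (values given below). Meox1 differed in the same direction by 1.93 ± 0.26 (edgeR adjusted p = 0.0052). Of the myofibroblast markers 2 of 25 passed and of the resting markers 0 of 25.

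Of the 61 lists the one with the most members past this test was DNA replication, 6 of 32, all with a response that was smaller in H1.0 siRNA cells. They were Mcm2, Mcm3, Mcm4, Pcna, Pold1 and Chaf1a, named after their values were seen. Their rises in scramble cells were 0.98, 1.04, 0.94, 0.79, 0.60 and 0.91 on the log2 scale, and in H1.0 siRNA cells the changes were -0.06, -0.06, -0.28, -0.02, -0.33 and -0.05. The list median was 0.88 in scramble cells and -0.05 in H1.0 siRNA cells, that of mitosis genes 0.48 and -0.39, and that of cholesterol and fatty acid synthesis 0.84 and 0.11, the latter pair of lists with 0 members past the test. Without replicate 3, 20 cholesterol and 10 mitosis genes passed it. Without the scramble vehicle library of replicate 3 the numbers were 10 and 1, with DESeq2 2 and 10, and without the H1.0 siRNA vehicle library of replicate 3 they were 0 and 4. The count for DNA replication was as unsettled, at 19 with DESeq2, 14 without replicate 3, 10 without the H1.0 siRNA vehicle library of replicate 3, 3 with an offset for transcript length and 1 without the block. It was 0 without the scramble TGF-β library of replicate 2, 1 without the scramble vehicle library of replicate 1 or 2, the scramble TGF-β library of replicate 3 or the H1.0 siRNA TGF-β library of replicate 1, 2 without the scramble TGF-β library of replicate 1, the H1.0 siRNA vehicle library of replicate 2 or the H1.0 siRNA TGF-β library of replicate 2, and 3 without the H1.0 siRNA vehicle library of replicate 1. The 2 responses share no library.

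**Figure D5:**
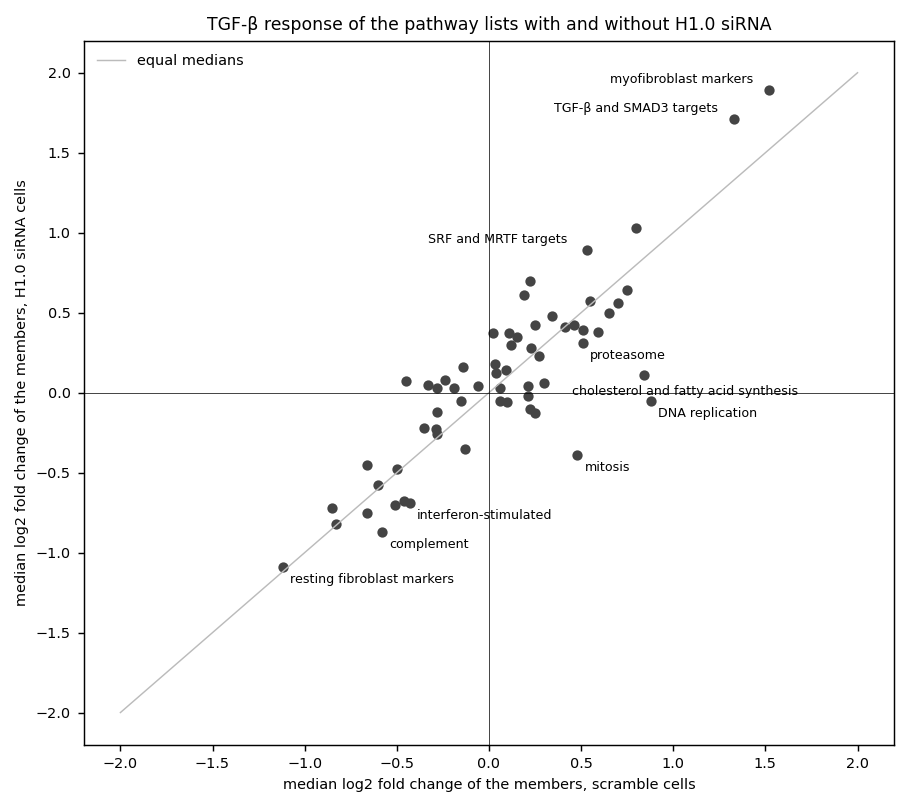
Each point is a pathway list, placed by the median log2 fold change of its members (TGF-β over vehicle) in scramble cells (horizontal) and in H1.0 siRNA cells (vertical), with a gray line where the 2 medians are equal. Most lists lie near the line, while DNA replication (0.88 against -0.05), mitosis (0.48 against -0.39) and cholesterol synthesis (0.84 against 0.11) lie below it. Fold changes are taken within each siRNA group, so the points do not compare levels.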

How the data were processed

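RNA from 12 cultures of primary mouse cardiac fibroblasts (4 groups of 3 biological replicates, per the labels) was depleted of rRNA and read as paired ends. The authors quantified transcripts with Salmon on an mm10 index, and the deposited values are estimated counts and TPM per transcript. The estimated counts were summed per gene with GENCODE M21 (99.54 to 99.6% of reads matched), rounded and tested with edgeR 4.0.16 (R 4.3.3): genes with at least 10 reads over the 12 libraries, TMM factors, a group term and the replicate number as a block, a quasi-likelihood F test and Benjamini-Hochberg adjustment, with calls at an adjusted p below 0.01. Standard errors are the log2 fold change over the root of F. Depth was 19864545 reads in the shallowest and 36296333 in the deepest library.

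The replicate number was a block by the design set for this comparison. Deviations from the group means of the scramble libraries correlated within each number (0.251, 0.5 and 0.556). Across numbers, vehicle replicate 2 with TGF-β replicate 1 stood at 0.217, near the first of these, and the others ran from -0.499 to 0.061. The Y-linked Ddx3y was lower in all libraries of replicate 1 (1371 to 1682 normalized counts) than in those of replicates 2 and 3 (2125 to 2804). On simulated counts with 200 changed genes, 42, 86, 98 and 100% of changes of 0.5, 1, 1.5 and 2 on the log2 scale were recovered, with 1 false call among 17665 genes. The changed genes were drawn from those with a mean count of at least 100, and the counts from the fitted model, block included. The recovery therefore does not cover rarer genes, and the simulation cannot check the block. Far fewer genes changed in it than were called in the data. Named genes were the 20 called genes with the largest fold change in each direction (mean of at least 100, no overlap), the 5 with the largest TPM change, up to 5 called members per list and direction with the 2 most abundant that were not called, all TGF-β ligands, receptors and SMADs, up to 5 non-coding genes per direction, and H1f0. The comparison and the 61 lists were chosen with earlier results of these data known. Alternatives changed the normalization, the filter, the block, the libraries or the tool (DESeq2 1.42.0, limma 3.58.1). Promoters came from RefSeq. Some genes that the rule picked are not reported here.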

Additional observations from a re-analysis of the deposited data

Results flagged for a closer look

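Among the named genes, 14 had a TGF-β response that differed between scramble and H1.0 siRNA cells by the test of the difference itself (edgeR adjusted p below 0.01). Each value is the log2 response in H1.0 siRNA cells less that in scramble cells and does not compare levels. It was more positive in H1.0 siRNA cells for the cytoskeletal gene Tagln (2.05), the homeobox factor Meox1 (1.93), the immediate early factor Egr3 (1.53), the growth factor Ccn2 (0.95), the chemokine Cx3cl1 (0.98), the collagen chain Col11a1 (1.51), the collagen receptor chain Itga11 (0.83) and the secretory factor Creb3l1 (0.63). It was also more positive for the proteases Adamts8 (2.79), Adamts12 (1.29), Mmp11 (1.08) and Mmp14 (0.50). It was more negative for the adhesion molecule Mcam (-1.82) and the Hedgehog co-receptor Boc (-1.14).

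Tagln in H1.0 siRNA cells averaged 1160 ± 219.7 normalized counts with vehicle and 16730 ± 2573 with TGF-β, beside 13437 ± 3103 and 46137 ± 542.8 in scramble cells (mean ± s.d., n = 3). Mcam averaged 107.0 ± 25.2 and 272.8 ± 35.4, beside 335.5 ± 98.9 and 2969 ± 52.9.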

How the results depend on the processing

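None of the named genes that were called changed direction under the alternatives run, while 25 of those not called changed sign under at least 1. Of the 451 named genes that were called, 257 kept their call under all alternatives, and of the 137 not called, 88 stayed so. Without the replicate block 1893 genes rose and 1431 fell, 8 genes passed the test of a difference between the 2 responses, and 64.6% of calls were kept. The 6 scramble libraries without the block, an alternative chosen after the data were seen, gave 1424 genes higher and 1025 lower, and 413 lower by at least 2-fold. The number of genes with a difference between the 2 responses, 118 in the fit described, was 199 with a filter of 1 read, 42 with an offset for transcript length and 590 with DESeq2, lay between 11 and 186 with 1 library left out, and was 331 without replicate 3. Counts over all genes otherwise stayed within 1.5 times (5520 calls with DESeq2, 5177 with limma, 3829 with the offset, 3679 to 5398 with 1 library left out), and the median log2 fold change of all genes moved by less than 0.1. Depth limits genes under about 100 reads, whose fold changes carry wide errors. With 3 libraries a group, an exact permutation test of 1 gene could reach no p below 0.1, so the calls rest on a spread shared across genes.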

Other observations

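Lists not described above were called as follows. Of 20 YAP and TEAD targets 7 rose (4 without the replicate block) and 3 fell (1 without the block or without the TGF-β library of replicate 2 or 3), with Ajuba (0.94 ± 0.11) and the secreted kinase Fjx1 (1.02 ± 0.17) among the higher, both on the log2 scale, and Tead1 (-0.33 ± 0.11) and Amotl2 (-0.26 ± 0.07) not called. Of 15 EGF family genes 4 rose (2 without the block) and 3 fell (1 without the block, in the 6 scramble libraries alone, with DESeq2 or without the scramble TGF-β or the H1.0 siRNA vehicle library of replicate 1, and 0 with an offset for transcript length or without the vehicle library of replicate 1 or 2 or the TGF-β library of replicate 2), with the receptor inhibitor Lrig1 (0.93 ± 0.07) behind Hbegf and the ligand Nrg1 (0.29 ± 0.20) not called. The sprouty inhibitor Spry2, which damps FGF and EGF signals, fell (from 1749, 1807 and 2363 to 1217, 999.6 and 1206, log2 fold change -0.78 ± 0.14). Among smooth muscle contractile genes Des (0.80 ± 0.29), Cald1 (0.20 ± 0.06) and Synpo2 (-0.14 ± 0.14) did not pass.

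Among guidance receptors the semaphorin receptor Plxnc1 fell (from 1591, 1251 and 928.5 to 491.5, 412.3 and 316.6, log2 fold change -1.62 ± 0.07) and the co-receptor Nrp1 fell by less (-0.59 ± 0.08). Among p53 targets the proapoptotic Pmaip1 rose (1.55 ± 0.15) while Sesn1 (-1.03 ± 0.08) and Trp53inp1 (-0.73 ± 0.08) fell. Lamin A (Lmna) rose (0.55 ± 0.07), the chromatin protein Hmga1 fell (-0.89 ± 0.08) and the lysosomal β-galactosidase Glb1 fell (-0.56 ± 0.06). The hyaluronidase Hyal1 fell (-0.74 ± 0.12) as the hyaluronan-binding Tnfaip6 (1.04 ± 0.15) rose.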
